A study of Mus musculus with 6 samples.

Results

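The genes described here are 10 transcription factors and cofactors of B cell maturation in mouse leukaemia cells. They are Spi1, Spib and Ets1 of the Ets family, Irf4 and Irf8, the octamer factor gene Pou2f2 and its coactivator gene Pou2af1, Bach2, Bcl6 and Bcl11a. They were chosen by symbol, with earlier results of these data known, from 22098 gene symbols, and all 10 were found. Spi1 stands in the deposited table under its older symbol Sfpi1 and was matched through its RefSeq accession. The cells were cultures of BCR-ABL-transformed pro-B acute lymphoblastic leukaemia. They grew from whole bone marrow of C57BL/6 mice, transduced at the start of culture with a retrovirus for BCR-ABL p185, a constitutively active fusion kinase, and a YFP reporter. The ZnF4 mutant (Ikaros_ZnF4-/-) and the ZnF1 mutant (Ikaros_ZnF1-/-) each carry a homozygous mutation in a single DNA-binding zinc finger of Ikaros, and the wild type (wt) cultures carry neither. All groups share strain, tissue of origin and virus. Each genotype had a poly(A) RNA library at day 28 and another at day 21 of culture, so n = 2 per genotype and 6 libraries in all.

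Ikaros, encoded by Ikzf1, is a zinc finger factor that activates and represses genes of lymphocyte development. The factors described here act with it or after it in that programme. PU.1 (Spi1) and Spi-B (Spib) bind Ets sites and recruit IRF4 or IRF8 to composite Ets-Irf elements. Pre-B cells need IRF4 or IRF8 to rearrange light chain genes. Oct-2 (Pou2f2) binds octamer elements with the coactivator OBF-1 (Pou2af1). Bach2 and Bcl6 are repressors that hold back plasma cell differentiation and act at the pre-B cell checkpoint, and Bcl11a is required for early B cells. PU.1 is also the master factor of macrophages, where it stands at higher levels than in B cells.

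The measure is RPKM, reads scaled to transcript length and library size, as deposited, so levels may be compared between genes. The depth of the libraries is unknown, and between 10401 and 11233 symbols per library reached 1 RPKM. Differences are given in log2(RPKM + 1) as the estimate ± standard error (SE) of a limma fit to all 6 libraries with genotype and day as terms. "Called" means an adjusted p below 0.05 over 11379 tested genes, and all 10 factors passed the filter on low values (1 RPKM in at least 2 libraries). Whether day 28 and day 21 of a genotype were separate cultures is not said in the labels, so a p-value here measures repeatability between days and the spread may be technical. All 10 pro-B and pre-B markers were tested, and their summed level, to which Igll1 (a surrogate light chain gene, 663 to 1124.8 RPKM) gave more than any other, was 2592 to 2940 RPKM in ZnF4 mutant cultures, 2662 to 2678 RPKM in ZnF1 mutant cultures and 2553 to 2807 RPKM in wild type cultures. Igll1 and Vpreb2 were called higher and Dntt (-2.06) and Cd24a (-0.73) lower in the ZnF4 mutant against wild type, and in the ZnF1 mutant Cd24a was called lower (-0.99). Of 9 T cell markers the receptor genes Cd3e and Cd3g and the coreceptor genes Cd8a and Cd8b1 were listed at 0 in all 6 libraries. The sum of all 9 was 30.9 to 44.8 RPKM in ZnF4 mutant cultures, 136.7 to 146.1 RPKM in ZnF1 mutant cultures and 100.6 to 101.9 RPKM in wild type cultures, carried by Cd2 and Lck. Ikzf1, which carries the mutations, had 165.9 and 186 RPKM in ZnF4 mutant cultures, 91.4 and 108 RPKM in ZnF1 mutant cultures, and 78.7 and 89.2 RPKM in wild type cultures, at day 28 and day 21. These values cover the whole transcript and do not check the mutated finger.

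RefSeq sequence of the mouse build GRCm38.p6 was at hand for the 250 bases before the start of 8 of the 10 factors, in 10 windows. The authors' values rest on another build, mm9, and a window need not be the start used in these cells. Composite Ets-Irf letters (GGAA, any 2 bases and GAAA, on either strand) were found in 3 of the 10 windows, against 2.30% of all 32851 RefSeq windows of the same length. Those windows belong to Bach2, Pou2f2 and Bcl6. They are shown because these letters are rare among all windows, with the composite letters in capitals, each read 5′ to 3′ on the strand of its gene. Of the 8 factors with a window 7 were called in some comparison below, so a call does not set these 3 apart.
Bach2 (chr4:32417185-32417434, plus strand): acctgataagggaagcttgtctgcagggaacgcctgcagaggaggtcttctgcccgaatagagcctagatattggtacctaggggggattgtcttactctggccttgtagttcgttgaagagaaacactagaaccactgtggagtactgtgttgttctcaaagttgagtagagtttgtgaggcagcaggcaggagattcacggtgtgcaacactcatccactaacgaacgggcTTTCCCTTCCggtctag
Pou2f2 (chr7:25132461-25132710, minus strand): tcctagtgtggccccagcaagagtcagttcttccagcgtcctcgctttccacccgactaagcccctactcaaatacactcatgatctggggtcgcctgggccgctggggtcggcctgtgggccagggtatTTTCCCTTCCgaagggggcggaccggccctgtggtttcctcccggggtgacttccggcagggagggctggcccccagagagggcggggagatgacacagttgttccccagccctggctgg
Bcl6 (chr16:23981284-23981533, minus strand): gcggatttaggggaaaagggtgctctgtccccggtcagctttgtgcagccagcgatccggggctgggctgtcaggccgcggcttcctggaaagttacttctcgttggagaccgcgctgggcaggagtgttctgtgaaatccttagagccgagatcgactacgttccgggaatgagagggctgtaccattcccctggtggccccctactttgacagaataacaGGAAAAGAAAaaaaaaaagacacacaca
Plain Ets letters (CCGGAA or TTCCGG) were also in 3 windows, against 3952 of the 32851 RefSeq windows, and in Bach2 they overlap the composite letters. In Bcl6 the composite letters lie in an A-rich run. The core letters of Ikaros sites (TGGGAA or TTCCCA) were in 2 windows, those of Bcl11a and Irf8, against 21.6% of all windows. Octamer letters (ATGCAAAT or ATTTGCAT) were in 0 of the 10, against 1.60%. A match is a description of the letters, not a binding site.

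Pou2af1 had the highest level of the 10 factors in every genotype and Bcl6 the lowest. The mean of the 2 days was 300.9 RPKM for Pou2af1 in the ZnF4 mutant, 313.9 RPKM in ZnF1 mutant cultures and 472.8 RPKM in wild type cultures. The order between these ends differed by genotype. Spib was second in wild type (88 RPKM) and in the ZnF1 mutant (118.4 RPKM) and sixth in the ZnF4 mutant (32.05 RPKM), where its values overlapped those of Irf4. In wild type the values of Irf8, Bcl11a, Ets1 and Spi1, in the places after it, overlapped from neighbour to neighbour. Irf4, Bach2, Pou2f2 and Bcl6 closed the order in all 3 genotypes, and among these 4 each lay below the one before without overlap.

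**Figure D1:**
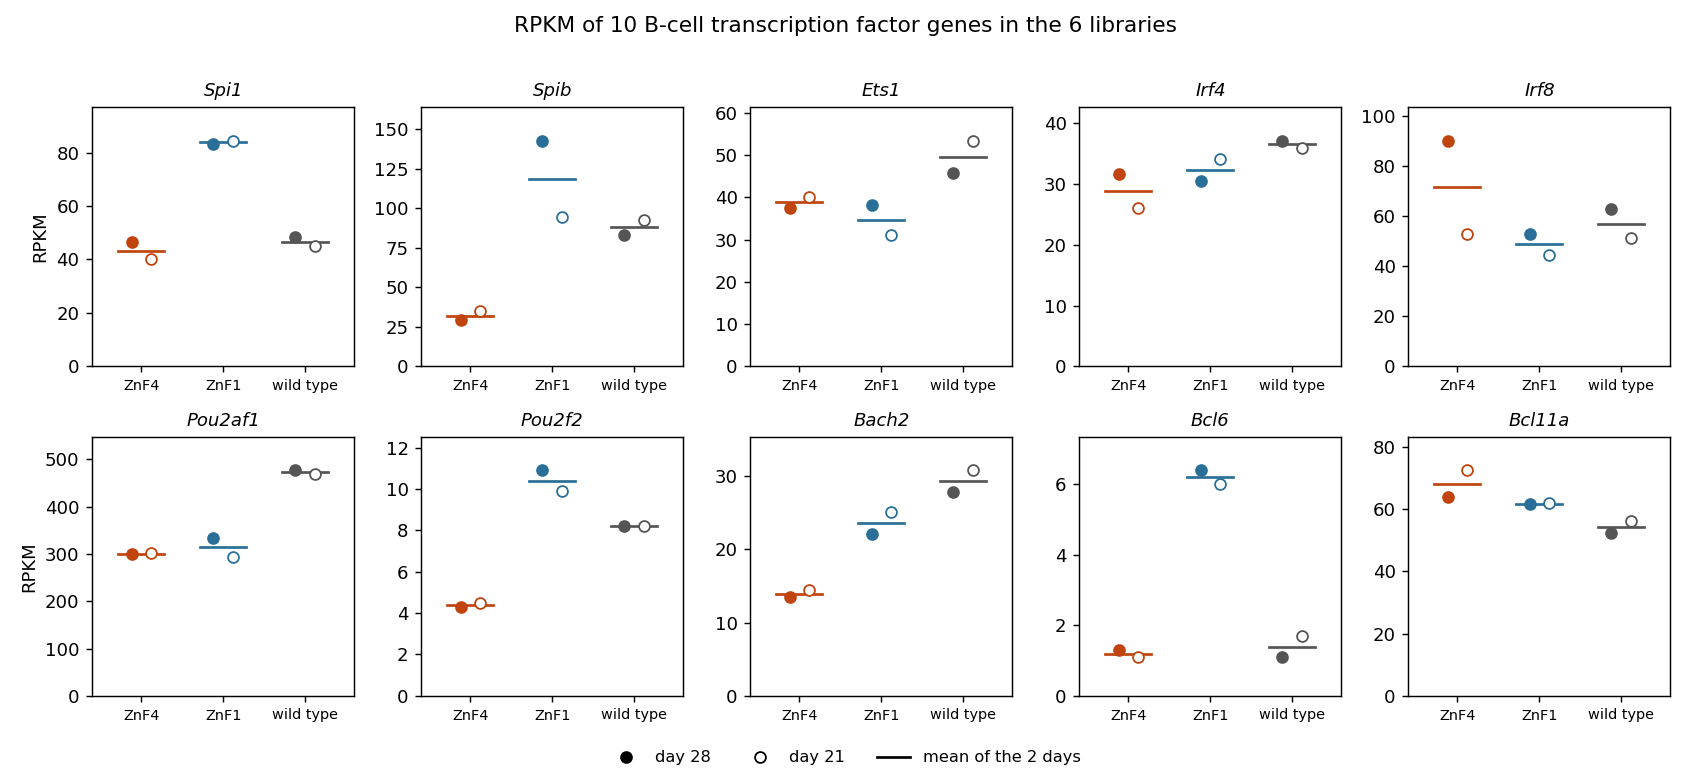
RPKM (linear axes from 0, a scale per gene) of the 10 factors in each library of the ZnF4 mutant, the ZnF1 mutant and wild type; filled points are day 28, open points day 21 and lines the mean of the 2 days. Spib, Pou2f2 and Bach2 are lowest in the ZnF4 mutant, Spi1 and Bcl6 highest in the ZnF1 mutant, and Pou2af1 is lower in both mutants than in wild type.

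In the ZnF4 mutant 4 of the 10 factors were called lower than in wild type (Spib, Bach2, Pou2f2 and Pou2af1) and 1 was called higher (Bcl11a). The ZnF1 mutant had 3 called higher than in wild type (Bcl6, Spi1 and Pou2f2) and 3 lower (Pou2af1, Ets1 and Bach2). Between the mutants, 5 were called lower in the ZnF4 mutant than in the ZnF1 mutant (Spib, Bcl6, Pou2f2, Spi1 and Bach2) and 1 higher (Irf8). Irf4 was called in none of these comparisons. The comparisons with wild type share its 2 libraries, and each mutant is used again in the comparison between the mutants.

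These counts stand against many calls among all genes. In the ZnF4 mutant against wild type, 18.2% of the tested genes were called, 10.9% higher and 7.32% lower, and 5 of 10 factors. In the ZnF1 mutant against wild type 38.1% were called, 22.9% higher and 15.2% lower, and 6 of 10 factors. In the ZnF4 mutant against the ZnF1 mutant 45.5% were called, 22.3% higher and 23.2% lower, and 6 of 10 factors. The median difference of the 10 factors was -0.34, 0.0058 and -0.44 in these comparisons, against 0.02, -0.02 and 0.03 over all tested genes. Quantile scaling turned the split of all calls in the ZnF1 mutant against wild type, with 2047 genes higher and 2913 lower in place of 2606 and 1730. Between the mutants it gave 3431 higher and 2359 lower in place of 2540 and 2637. Of the 5 calls in the ZnF4 mutant, 1 (Bach2) was kept without wild type of day 28 or of day 21 and without ZnF4 of day 28 or of day 21, and Irf8 was gained without ZnF4 of day 21. Of the 6 calls in the ZnF1 mutant, 2 (Spi1 and Bcl6) were kept without wild type of day 28 or of day 21 and without ZnF1 of day 21, which gained Spib, and 4 without ZnF1 of day 28. Of the 6 calls between the mutants, 5 or 6 were kept without any 1 library.

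**Figure D2:**
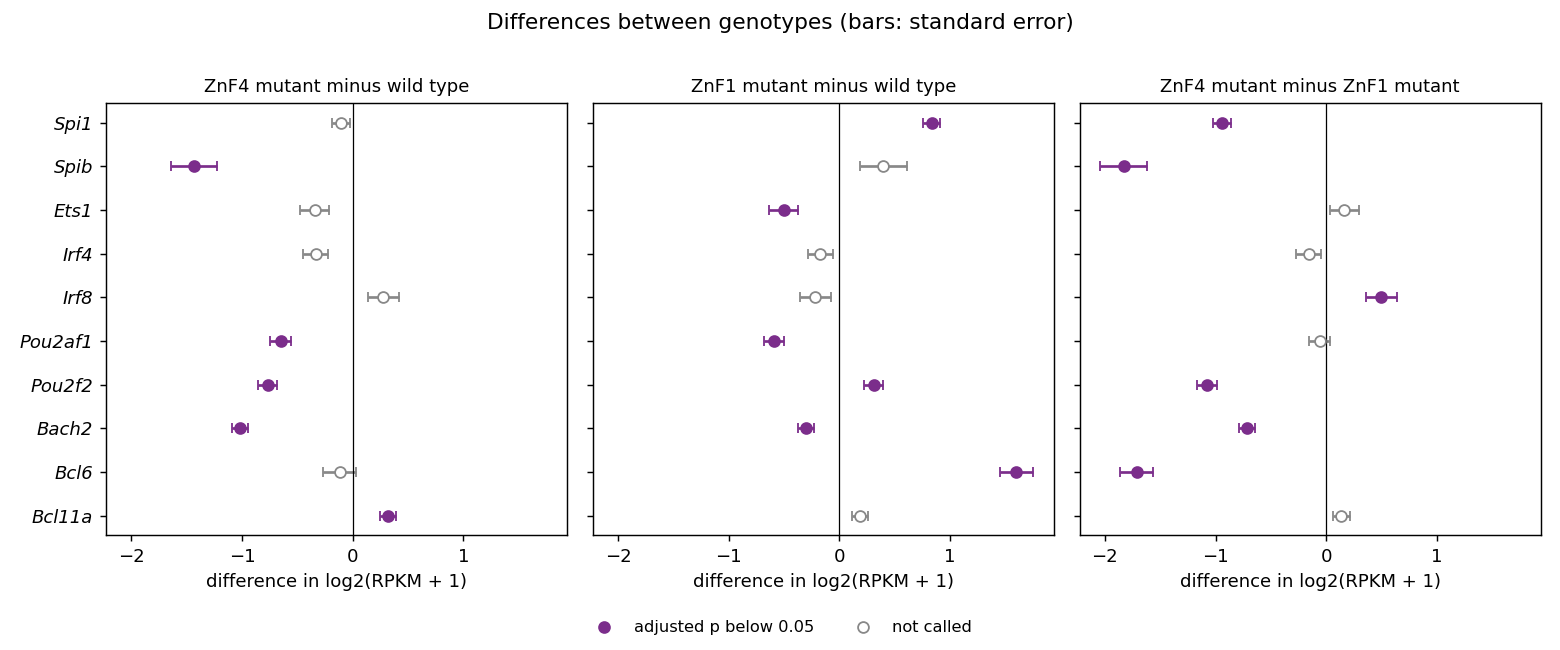
Differences in log2(RPKM + 1) between genotypes for the 10 factors, as limma estimates with standard errors (bars); filled points are called at an adjusted p below 0.05. Spib, Bach2, Pou2f2 and Pou2af1 lie left of 0 in the ZnF4 mutant against wild type, and Bcl6 at 1.60 and Spi1 at 0.83 lie farthest right in the ZnF1 mutant against wild type.

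Among the Ets genes, Spi1 was higher in the ZnF1 mutant and Spib was lower in the ZnF4 mutant. Spi1, which encodes PU.1, had 46.5 and 40.2 RPKM in ZnF4 mutant cultures at day 28 and day 21, 83.2 and 84.4 RPKM in ZnF1 mutant cultures, and 48.4 and 44.9 RPKM in wild type cultures. The ZnF1 libraries stood above all others, and the ZnF4 and wild type libraries overlapped. The difference was 0.83 ± 0.08 in the ZnF1 mutant against wild type (adjusted p = 0.00180) and -0.94 ± 0.08 in the ZnF4 mutant against the ZnF1 mutant (adjusted p = 0.000890). Both calls held under all 14 alternative settings run, with adjusted p up to 0.0396 and 0.0197. Against wild type the ZnF4 mutant differed by -0.11 ± 0.08 (adjusted p = 0.428).

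Macrophage markers were high in the same ZnF1 libraries as Spi1, while in the ZnF4 mutant many were lower than in wild type and Spi1 was not called. Of the 14 macrophage markers, 14 were called higher in the ZnF1 mutant than in wild type, with a median difference of 2.29, and 8 were called lower and 0 higher in the ZnF4 mutant (median -0.74). Their summed level was 221.7 to 288.6 RPKM in ZnF4 mutant cultures, 2113 to 2242 RPKM in ZnF1 mutant cultures and 352.5 to 557 RPKM in wild type cultures, and none was listed at 0 in any genotype. Csf1r, the macrophage growth factor receptor gene and a PU.1 target, had 9.6 and 8.1 RPKM in ZnF4 mutant cultures, 77 and 85.5 RPKM in ZnF1 mutant cultures, and 13 and 21.2 RPKM in wild type cultures. Of the 9 stromal markers 8 were tested, and 2 of these, Dcn and Col3a1, passed the filter only through the ZnF1 libraries. Against wild type the other 6 were all called higher in the ZnF1 mutant, and 4 of them were called lower in the ZnF4 mutant. The summed level of all 9 was 20.8 to 23.5 RPKM in ZnF4 mutant cultures, 184.7 to 186.3 RPKM in ZnF1 mutant cultures and 31.6 to 46 RPKM in wild type cultures. Lum was listed at 0 throughout. In such bulk libraries more cells of a type and more RNA per cell cannot be told apart, and the part of other cells in the level of Spi1 was not tested. The 14 markers differed by 2.11 to 3.77 and Spi1 by 0.83, from unlike levels in wild type, so these sizes say nothing about that part.

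**Figure D3:**
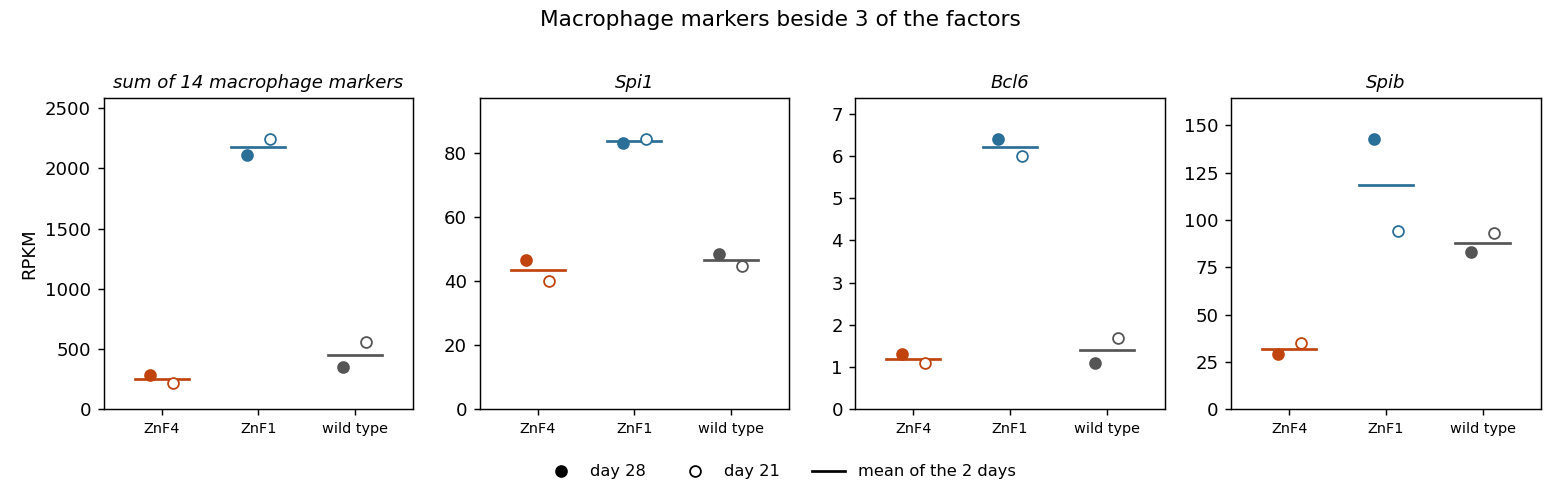
RPKM (linear axes from 0) of the summed 14 macrophage markers, Spi1, Bcl6 and Spib in each library; filled points are day 28, open points day 21 and lines the mean of the 2 days. The marker sum, Spi1 and Bcl6 are highest in both ZnF1 libraries, while Spib is lowest in both ZnF4 libraries.

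Spib had 29.3 and 34.8 RPKM in ZnF4 mutant cultures at day 28 and day 21, 142.7 and 94.2 RPKM in ZnF1 mutant cultures, and 83.1 and 92.9 RPKM in wild type cultures. The ZnF4 libraries were well below all others, and the ZnF1 library of day 28 stood apart as the highest. Spib was lower in the ZnF4 mutant, with a difference of -1.43 ± 0.21 against wild type (adjusted p = 0.0112), a ratio of mean RPKM of 0.364. The difference was -1.83 ± 0.21 against the ZnF1 mutant (adjusted p = 0.00206), a call that held under all 14 settings. The call against wild type was lost without the filter on low values (adjusted p = 0.0850) and without any single wild type or ZnF4 library (adjusted p up to 0.150). In the ZnF1 mutant against wild type the difference was 0.40 ± 0.21 (adjusted p = 0.192), made up of 0.77 at day 28 and 0.02 at day 21. Without the ZnF1 library of day 21 it was called (0.79, adjusted p = 0.0243), and without that of day 28 it was -0.00057 (adjusted p = 0.998).

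Ets1, a broadly lymphoid Ets factor, had 37.6 and 40 RPKM in ZnF4 mutant cultures, 38.3 and 31.1 RPKM in ZnF1 mutant cultures, and 45.7 and 53.4 RPKM in wild type cultures, at day 28 and day 21. Every mutant library lay below both wild type libraries, and the mutants overlapped. It was called lower in the ZnF1 mutant (-0.51 ± 0.13, adjusted p = 0.0348), and in the ZnF4 mutant it differed by -0.34 ± 0.13 (adjusted p = 0.148). The call was lost without the filter and without any single library but ZnF1 of day 28 (adjusted p up to 0.258). Without the ZnF1 library of day 21 the difference was -0.28.

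Of the Irf genes, Irf4 was called in no comparison and Irf8 in 1. Irf4 had 31.7 and 26.1 RPKM in ZnF4 mutant cultures, 30.5 and 34.1 RPKM in ZnF1 mutant cultures, and 37.1 and 35.9 RPKM in wild type cultures, at day 28 and day 21. All mutant libraries were below both wild type libraries, but the differences of -0.33 ± 0.11 in the ZnF4 mutant (adjusted p = 0.110) and -0.17 ± 0.11 in the ZnF1 mutant (adjusted p = 0.273) were not called. Irf8 had 90 and 52.8 RPKM in ZnF4 mutant cultures, 52.9 and 44.6 RPKM in ZnF1 mutant cultures, and 62.7 and 51.3 RPKM in wild type cultures. The ZnF4 library of day 28 stood apart, and the other 5 libraries overlapped between genotypes. Irf8 was called higher in the ZnF4 mutant than in the ZnF1 mutant (0.50 ± 0.14, adjusted p = 0.0366), although the library ranges of these groups overlapped. That call was lost without the day term (adjusted p = 0.175), without the filter, with quantile scaling and without any single library but ZnF4 of day 21 (adjusted p up to 0.245). Without the ZnF4 library of day 28 the difference was 0.25. Against wild type Irf8 differed by 0.28 ± 0.14 in the ZnF4 mutant (adjusted p = 0.247) and by -0.22 ± 0.14 in the ZnF1 mutant (adjusted p = 0.265). The first was called without ZnF4 of day 21 (adjusted p = 0.0496) and the second without ZnF4 of either day (lowest adjusted p = 0.0418).

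The octamer factor and its coactivator differed in their patterns. Pou2f2, which encodes Oct-2, had 4.3 and 4.5 RPKM in ZnF4 mutant cultures, 10.9 and 9.9 RPKM in ZnF1 mutant cultures, and 8.2 and 8.2 RPKM in wild type cultures, at day 28 and day 21. The 3 genotypes did not overlap, with the ZnF4 mutant lowest and the ZnF1 mutant highest. Pou2f2 was lower in the ZnF4 mutant, with differences of -0.77 ± 0.09 against wild type (adjusted p = 0.00580) and -1.08 ± 0.09 against the ZnF1 mutant (adjusted p = 0.000855). The second call held under all 14 settings, and the first was lost without any single wild type or ZnF4 library (adjusted p up to 0.0926). The rise in the ZnF1 mutant against wild type (0.31 ± 0.09, adjusted p = 0.0467) was lost under 10 of 14 settings, among them each of the 6 libraries left out. With quantile scaling that difference was 0.19 (adjusted p = 0.117).

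Pou2af1, which encodes OBF-1, had 299.8 and 302 RPKM in ZnF4 mutant cultures, 333.7 and 294.1 RPKM in ZnF1 mutant cultures, and 476.8 and 468.8 RPKM in wild type cultures, at day 28 and day 21. Both mutants lay below wild type without overlap, and they overlapped each other. The difference from wild type was -0.65 ± 0.09 in the ZnF4 mutant (adjusted p = 0.0105) and -0.59 ± 0.09 in the ZnF1 mutant (adjusted p = 0.00758). Between the mutants it was -0.06 ± 0.09 (adjusted p = 0.645). The ZnF4 call was lost without the filter (adjusted p = 0.0515) and without any single wild type or ZnF4 library (adjusted p up to 0.163). The ZnF1 call was lost when wild type of either day, or ZnF1 of day 21, was left out (adjusted p up to 0.116).

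Of the repressors, Bach2 was lowest in the ZnF4 mutant and Bcl6 highest in the ZnF1 mutant. Bach2, a partner of small Maf proteins, had 13.5 and 14.4 RPKM in ZnF4 mutant cultures, 22.1 and 25.1 RPKM in ZnF1 mutant cultures, and 27.8 and 30.8 RPKM in wild type cultures, at day 28 and day 21. The 3 genotypes did not overlap. Bach2 was lower in the ZnF4 mutant, with differences of -1.02 ± 0.07 against wild type (adjusted p = 0.00140), a ratio of mean RPKM of 0.476, and -0.72 ± 0.07 against the ZnF1 mutant (adjusted p = 0.00118). Both calls held under all 14 settings, with adjusted p up to 0.0439 and 0.0248. In the ZnF1 mutant it was lower than in wild type (-0.30 ± 0.07, adjusted p = 0.0233). That call was lost without the day term (adjusted p = 0.0626) and without any single wild type or ZnF1 library (adjusted p up to 0.178).

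Bcl6 had 1.3 and 1.1 RPKM in ZnF4 mutant cultures, 6.4 and 6 RPKM in ZnF1 mutant cultures, and 1.1 and 1.7 RPKM in wild type cultures, at day 28 and day 21. Both ZnF1 libraries stood above all others, and the ZnF4 and wild type libraries overlapped. The difference was 1.60 ± 0.15 in the ZnF1 mutant against wild type (adjusted p = 0.00173), a ratio of mean RPKM of 4.43. It was -1.71 ± 0.15 in the ZnF4 mutant against the ZnF1 mutant (adjusted p = 0.000969). Both calls held under the 13 settings that could be fitted for Bcl6, whose mean is too low for the stricter filter. In the ZnF4 mutant against wild type the difference was -0.12 ± 0.15 (adjusted p = 0.658). As for Spi1, the rise was in the libraries with the high macrophage and stromal marker sums given above, and the part of other cells in it was not tested.

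Bcl11a, a zinc finger repressor of early B cells, had 63.7 and 72.4 RPKM in ZnF4 mutant cultures, 61.5 and 61.8 RPKM in ZnF1 mutant cultures, and 52.2 and 56.1 RPKM in wild type cultures, at day 28 and day 21. In the transcript row used, the genotypes did not overlap, but lay close together. The difference was 0.32 ± 0.07 in the ZnF4 mutant against wild type (adjusted p = 0.0402) and 0.18 ± 0.07 in the ZnF1 mutant (adjusted p = 0.104). The first was lost under 10 of 14 settings, including without the day term (adjusted p = 0.0668) and without any single library (adjusted p up to 0.273). The second was called with quantile scaling (adjusted p = 0.0279).

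The table holds several transcript rows for Bcl11a, Ets1 and Pou2f2, and the values above are those of the row with the highest mean. Of the 4 rows of Bcl11a, 3 had levels of the same order and the fourth was listed at 0 in all libraries. Fitted separately, the first of these 3 differed by 0.32 in the ZnF4 mutant against wild type and the others by 0.19 and 0.20 (adjusted p = 0.232 and 0.108). In the others the ZnF4 and wild type libraries overlapped, unlike in the first. The second row of Ets1 had 1.9 to 3.5 RPKM over the 6 libraries and differed by -0.32 ± 0.13 in the ZnF1 mutant against wild type (adjusted p = 0.123). The other 2 rows of Pou2f2 stayed at or below 0.6 RPKM and were not tested. Rows of a gene share exons, so their values are not independent.

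Between day 28 and day 21 none of the 10 factors was called, with 0% of all genes called. Irf8 was the 1 factor with an unadjusted p below 0.05 in that limma fit, as were 1631 of all tested genes. Irf8 was higher at day 28 in each genotype, with 0.76 in the ZnF4 mutant, 0.24 in the ZnF1 mutant and 0.28 in wild type, and 0.43 ± 0.11 in the fit (adjusted p = 0.243). Bach2 was lower at day 28 in each genotype, with -0.09 in the ZnF4 mutant, -0.18 in the ZnF1 mutant and -0.14 in wild type, and -0.14 ± 0.06 in the fit (adjusted p = 0.363). With a single library per genotype and day, a change of a genotype difference with the day was not testable.

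Relatives and partners of these factors were set beside them from lists written with earlier results known. Their counts read against the shares over all genes given above, 10.9% higher and 7.32% lower in the ZnF4 mutant and 22.9% higher and 15.2% lower in the ZnF1 mutant, each against wild type. Of 16 tested other Ets genes, 4 were called higher and 1 lower in the ZnF4 mutant against wild type. They were Erf (1.53 ± 0.18), Elk3 (0.75 ± 0.06), Etv6 (0.71 ± 0.10) and Etv5 (0.58 ± 0.14), with Etv3 lower (-0.52 ± 0.07). Erf and Etv3 encode Ets repressors. Spic, the gene of a PU.1 relative in red pulp macrophages, passed the filter only through the ZnF1 libraries, with 1.3 and 1.1 RPKM in ZnF1 mutant cultures and 0.3 and 0.3 RPKM in wild type cultures. Of the other 15, the ZnF1 mutant had 3 called higher and 1 lower, against 38.1% called over all genes. The difference of this short list from that share was not tested.

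Of 6 tested other Irf genes, 0 were higher and 2 lower in the ZnF4 mutant against wild type, Irf1 (-0.73 ± 0.09) and Irf9 (-0.34 ± 0.08). The ZnF1 mutant had 3 higher and 0 lower, Irf7 (1.32 ± 0.21), Irf5 (0.62 ± 0.07) and Irf9 (0.32 ± 0.08), genes of the interferon response. Irf7 had 6 and 3.3 RPKM in ZnF1 mutant cultures and 1.1 and 1.3 RPKM in wild type cultures, at day 28 and day 21. The rises were in the libraries with high macrophage and stromal marker sums, and the part of other cells was not tested. The POU gene Pou2f1, which encodes the widely expressed Oct-1, had 17.9 and 16.1 RPKM in ZnF4 mutant cultures, 10.8 and 14.6 RPKM in ZnF1 mutant cultures, and 14.8 and 17.9 RPKM in wild type cultures, and was not called.

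Of 8 Bach and Maf partners, 0 were higher and 2 lower in the ZnF4 mutant against wild type, Nfe2l2 (-0.45 ± 0.07) and Maf (-0.54 ± 0.12). There were 5 higher and 0 lower in the ZnF1 mutant, among them Maf (1.91 ± 0.12), with Bach1 at 0.30 ± 0.08. Of 5 relatives and corepressors of Bcl6 and Bcl11a, Ncor1 (-0.34 ± 0.07) and Bcor (-0.32 ± 0.07) were lower in the ZnF1 mutant against wild type. Of the 6 commitment factors, Pax5, Ebf1 and Foxo1 were called in neither mutant against wild type. Ikzf1 was higher in the ZnF4 mutant (1.06 ± 0.07) and in the ZnF1 mutant (0.24 ± 0.07). Ikzf3, the Aiolos gene, was lower in the ZnF4 mutant (-0.51 ± 0.08) and in the ZnF1 mutant (-0.49 ± 0.08), and Tcf3 was lower in the ZnF1 mutant (-0.42 ± 0.11).

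Of 18 tested genes known as targets of these factors in B cells or macrophages, 1 was called higher and 7 lower in the ZnF4 mutant against wild type. The 1 called higher was Ikzf1, which carries the mutations. Prdm1, Cd40 and Ms4a1 passed the filter only through the ZnF1 libraries. Of the other 15, there were 6 higher and 3 lower in the ZnF1 mutant. The 6 were Il7r, Csf1r, Itgam, Cd36, Hmox1 and again Ikzf1, and the 3 were Ikzf3, Trp53 and Cxcr5. Prdm1, the plasma cell factor gene that Bach2 and Bcl6 repress, had 0.4 and 0.1 RPKM in ZnF4 mutant cultures, 1.9 and 1.7 RPKM in ZnF1 mutant cultures, and 0.6 and 0.6 RPKM in wild type cultures. Hmox1, the haem oxygenase gene that Bach factors repress, had 16 and 14.2 RPKM in ZnF4 mutant cultures, 89.8 and 64.9 RPKM in ZnF1 mutant cultures, and 12.7 and 16.5 RPKM in wild type cultures, and was called higher in the ZnF1 mutant against wild type (2.32 ± 0.19). Macrophages express it too. Cxcr5, a chemokine receptor gene that needs Oct-2 in B cells, had 4.6 and 1.9 RPKM in ZnF4 mutant cultures, 5.7 and 1.5 RPKM in ZnF1 mutant cultures, and 17.6 and 26.1 RPKM in wild type cultures. Its levels were below wild type in all 4 mutant libraries, and the part of Pou2f2 or of its coactivator gene Pou2af1 in them was not tested. Btk, a B cell receptor kinase gene activated by PU.1, was lower in the ZnF4 mutant (-0.38 ± 0.09) and Cd79a and Blnk were called in neither mutant against wild type. The targets Csf1r, Itgam and Cd36 in this list are macrophage genes too.

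By profile, the genes most like each factor were taken as the 3 with the smallest root mean square distance of centred log2(RPKM + 1) over the 6 libraries, among 9862 genes of at least 2 RPKM on average. Both libraries of a genotype share that genotype, so this is a description. Pou2af1 was closest to Entpd5, Ikzf3 and Lrrc42 (distances of 0.0569 to 0.0702). Ikzf3 had 51.7 and 52.8 RPKM in ZnF4 mutant cultures, 56.9 and 49.3 RPKM in ZnF1 mutant cultures, and 77.2 and 72.4 RPKM in wild type cultures. Bach2 was closest to Nrg4, Evl and Pde4d (0.0667 to 0.0731), and Spi1 to Tmem159, Efhd2 and Tns3 (0.0550 to 0.0700). Bcl6 was closest to the lysosomal gene Psap (0.0563), at 271.6 and 265.3 RPKM in ZnF4 mutant cultures, 896.1 and 804.7 RPKM in ZnF1 mutant cultures, and 264.6 and 344.3 RPKM in wild type cultures. Spib had no gene as near, with Gpr132, Sytl1 and Tm6sf1 at 0.161 to 0.205. Pou2f2 was closest to A630001G21Rik, Rnf135 and Hdgfrp3, Irf4 to Setd7, Irf8 to Ydjc, Bcl11a to Ankzf1 and Ets1 to Zfp94.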

How the data were processed

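Poly(A) RNA of 3 genotypes at 2 days was measured in 6 libraries, made as fragmented double-stranded cDNA per the labels' protocols, with no strand-marking step named. TopHat, bedtools and the mouse build mm9 are named in the submitters' processing notes without versions. The authors deposited 1 table of RPKM values for 26531 RefSeq transcript rows, rounded to 1 decimal. A stray entry without a gene was left out. Read depth is unknown: among low values of rows under 160 bases, the share on steps of single reads exceeded chance by at most 0.642 percentage points in any library (27.5% against 26.9% of 211 values). For each symbol the row with the highest mean was used (3305 symbols have several). No pair of libraries was identical (at most 5.61% equal values).

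The log2 of RPKM plus a pseudocount of 1 was fitted with limma 3.58.1 in R 4.3.3, with genotype and day as additive terms, moderated variances with a mean-variance trend (prior degrees of freedom 3.22, residual 2), and Benjamini-Hochberg adjustment over the genes tested. The steps were tested on simulated data. Day pairs the libraries, as the labels give it, and across genes the day changes of any pair of genotypes had correlations of 0.226 to 0.433. The factors, lists and motifs were chosen with earlier results of these data known. Named genes were all 10 factors, their 3 nearest profiles, up to 6 called members per list and comparison, and Ikzf1. Target genes named with values although not called, or beyond these places, were chosen after their values were seen. Alternatives were a pseudocount of 0.1, no filter, a mean RPKM of at least 4, quantile and median scaling, no day term, summed rows, no trend and each library left out. Some genes that this choice names are not reported here.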

Additional observations from a re-analysis of the deposited data

How the results depend on the processing

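Of the 17 called differences of the 10 factors between genotypes, 8 kept their call under every alternative run: Bach2 in the ZnF4 mutant against wild type, Spi1 and Bcl6 in the ZnF1 mutant against wild type, and Spi1, Spib, Bach2, Pou2f2 and Bcl6 in the ZnF4 mutant against the ZnF1 mutant. No called difference turned its sign. In the ZnF4 mutant against wild type, 24 of 139 results of a factor under an alternative lost a call and 1 gained one. In the ZnF1 mutant it was 24 and 4 of 139, and between the mutants 8 and 0 of 139. Without the filter on low values, 2 factors and 1137 genes were called in the ZnF4 mutant against wild type, in place of 5 and 2076. With 1 library left out, factors called in that comparison ranged from 1 to 4 and genes from 346 to 1230. In the ZnF1 mutant against wild type they ranged from 2 to 5 and from 1398 to 4475, in place of 6 and 4336. Between the mutants they ranged from 5 to 6 and from 2526 to 3896, in place of 6 and 5177. These counts include factors not called with all 6 libraries. Such fits have fewer samples, and a lone library is assumed to vary like the others. Without the replicate block on day, 4, 5 and 5 factors were called in these comparisons, and 1687, 3653 and 4632 genes. The block cannot be dropped for the comparison of days, where 0 genes were called under every alternative. Bcl6 could not be fitted at a mean RPKM of at least 4. The transcript rows fitted separately were chosen after seeing the data. RPKM rounded to 1 decimal limits Bcl6 and other genes near 1 RPKM, and no counting error can be given without depth.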

Other observations

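Plasmacytoid dendritic cells express Spib and Irf8, and of 10 dendritic cell markers 3 could be tested. In the ZnF4 mutant against wild type Tcf4 was called higher (0.76 ± 0.09), and in the ZnF1 mutant against wild type Itgax (1.81 ± 0.14) and Bst2 (1.36 ± 0.22) were. Bst2 differed by 0.895 ± 0.22 in the ZnF4 mutant against wild type (adjusted p = 0.0504). The ZnF1 libraries also had the high macrophage marker sum given above, and the part of macrophages in Itgax and Bst2 was not tested. The defining genes Ccr9 and Klk1 were listed at 0 in all 6 libraries, and Siglech was listed at 0 in 5 and at 0.1 RPKM in the wild type library of day 21.

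Of 4 tested plasma cell markers, Prdm1 passed the filter only through the ZnF1 libraries and Igj only through the ZnF4 libraries, which leaves Xbp1 and Sdc1. Xbp1, a factor of secretory cells, had 27.7 and 29 RPKM in ZnF4 mutant cultures, 59 and 43.3 RPKM in ZnF1 mutant cultures, and 70 and 72.7 RPKM in wild type cultures at day 28 and day 21. Against wild type it was lower in the ZnF4 mutant (-1.30 ± 0.14, adjusted p = 0.00465) and in the ZnF1 mutant (-0.49 ± 0.14, adjusted p = 0.0450). Sdc1, a plasma cell surface marker, was higher in the ZnF1 mutant (0.98 ± 0.15), where it had 10.6 and 6.9 RPKM, against 3.9 and 3.8 RPKM in wild type cultures. Stromal and macrophage marker sums were high in the same libraries, and which cells carried Sdc1 was not tested. Of the T cell markers 4 of 9 could be tested. Cd4, which macrophages can also express, passed the filter only through the ZnF1 libraries and had 7.2 and 8.5 RPKM in ZnF1 mutant cultures and 0.2 and 0.4 RPKM in wild type cultures. Thy1 passed it only through the ZnF4 libraries. Against wild type, Cd2 was called higher in the ZnF1 mutant (0.94 ± 0.15) and lower in the ZnF4 mutant (-1.94 ± 0.15). Lck was called lower in the ZnF1 mutant (-1.08 ± 0.32, adjusted p = 0.0495). In the ZnF4 mutant Lck differed by -1.28 ± 0.32 (adjusted p = 0.0508).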
